A study of Mus musculus with 4 samples.

Results

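The fibrous stroma spots described here are 269 capture spots of the day 7 section of injured mouse tibial muscle, out of 3032 spots in that section and 10835 spots in the 4 sections of the series. They were chosen by measured values: a spot needed 2000 or more UMIs (unique molecular identifiers, each standing for 1 captured RNA molecule), it was left out if the cartilage genes Col2a1, Acan and Col9a1 together reached the 91st percentile of their share, and it became a member if the summed share of Col1a1, Col3a1, Postn and Tnc reached the 90th percentile among the spots that remained. Of the 3032 spots, 84 had too few UMIs, 266 were left out as cartilage-gene spots, 2682 remained, and 2413 of these were not members and serve as the other spots. The rule used RNA of the same spots, so every difference between members and other spots is a description with no test.

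Tibial muscles of Nse-Bmp4 mice on the C57BL/6 strain, aged 6 to 8 weeks, were examined uninjured (day 0) and at 1, 3 and 7 days after cardiotoxin injury, with 1 fresh frozen section per day. In these mice the neuron-specific enolase (Nse) promoter drives a Bmp4 transgene, and bone forms in muscle after injury (heterotopic ossification). All 4 groups carry the transgene, and muscle without it was not analysed here. Per the labels a group combined 3 muscles, and whether a section holds tissue of 1 or several of them is not given in the sources used here. The median depth was 21029 UMIs per spot on day 0, 6322 on day 1, 16087 on day 3 and 12120 on day 7, and pairs of sections shared 1539 to 2311 barcodes, which name array positions and not cells. A spot covers several cells, so a spot is a small region and not a cell type, and fewer cells of a type and less RNA per cell cannot be told apart. There is no replicate section, so the spread among animals is unknown, and the 95% intervals below cover counting error only.

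Fibroblasts and related stromal cells build the fibrous matrix of muscle, tendon and scar. They secrete procollagens that are trimmed, cross-linked and laid down with adhesive proteins such as fibronectin, periostin and tenascins, and after injury they proliferate and enlarge this matrix. In heterotopic ossification, fibrous tissue precedes and surrounds cartilage, which is replaced by bone through endochondral ossification, and osteogenic cells make type I collagen as well.

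The member limit lay at 2.41% of the UMIs of a spot. The lowest 3 members had 2.41, 2.42 and 2.42%, and the highest 3 other spots had 2.41, 2.40 and 2.40%. Members ran from the limit to 8.98%, with a median of 3.26%, while other spots ran from 0.0121% upwards with a median of 0.575%. Within 10% of the limit lay 51 members (19.0%) and 60 other spots, so the score has no gap at the limit and the members are the upper end of a range. The spots left out for cartilage genes had a median of 5.14%, and 259 of the 266 were at or above 2.41%. The members are therefore the marker-rich spots below the cartilage limit of 0.247%, and the most collagen-rich part of the section lies partly outside them.

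**Figure D1:**
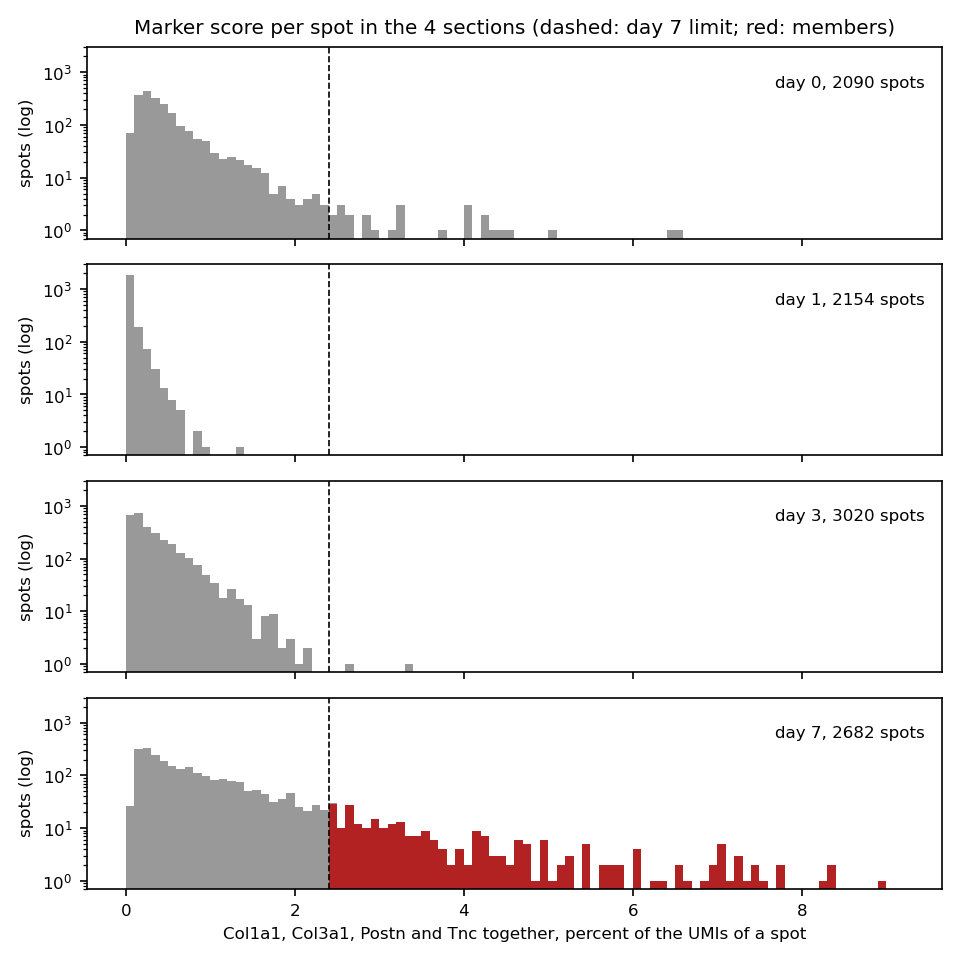
Number of spots (log axis) by the share of their UMIs from Col1a1, Col3a1, Postn and Tnc, for spots with 2000 or more UMIs at days 0, 1, 3 and 7, without the 266 cartilage-gene spots at day 7. The dashed line is the day 7 limit of 2.41%, and the 269 members are drawn in red; the limit was reached by 26 spots on day 0, 0 on day 1 and 2 on day 3.

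Type I collagen dominated the marker RNA of the members. Col1a1, the main chain of fibrillar collagen of bone, tendon and scar, gave 65.2% of their marker UMIs, Col3a1 (type III collagen of loose and young matrix) 22.9%, Postn (periostin, a matricellular protein) 10.5% and Tnc (tenascin-C) 1.42%. Over the 269 spots Col1a1 ran from 13596 to 64155 UMIs per 1000000 UMIs (CPM) with a median of 22751, and Col3a1 from 909.9 to 26500.3 with a median of 7168. Postn ran from 418 to 13478 with a median of 2766, and Tnc from 0 to 4185 with a median of 397. Col1a1 exceeded Col3a1 in all 269 spots, by 1.02 to 29 times with a median of 3.39. Tnc was the sparse marker: it had 0 UMIs in 8 members and a median of 6 UMIs a spot.

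How far the 4 markers varied together was described by correlation. After each spot was thinned to 2000 UMIs, Spearman's rank correlation across the 269 spots was 0.562 for Col1a1 with Postn, 0.509 for Col3a1 with Postn and 0.366 for Col1a1 with Col3a1. With Tnc, whose counts are sparse, it was 0.349 for Col1a1, 0.328 for Postn and 0.153 for Col3a1. Over all 2682 remaining spots it was 0.695 for Col1a1 with Col3a1 and 0.610 for Col1a1 with Postn. These are means over 20 draws, the spots share 1 library and the limit on the summed markers shapes them, so they are descriptions.

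The starts of these genes can be set beside the values. RefSeq (GRCm38.p6) gave windows for Col3a1, Postn and Tnc among the markers and for Sfrp2 and Tnn, the genes with the largest ratios among those with 50 or more CPM. The 100 bases before a start are shown 5′ to 3′ for these genes, which are markers of the rule or had the largest ratios. The set of windows used held none for Col1a1. Capitals mark TATAA, a form of the TATA box, and CCAAT, both searched on both strands. They do not overlap here.
Col3a1, chr1:45311438-45311537, plus strand: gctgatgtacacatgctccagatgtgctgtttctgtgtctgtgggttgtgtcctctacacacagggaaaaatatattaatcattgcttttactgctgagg
Postn, chr3:54361007-54361106, plus strand: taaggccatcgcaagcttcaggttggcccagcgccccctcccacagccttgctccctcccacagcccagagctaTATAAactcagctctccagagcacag
Tnc, chr4:64046937-64047036, minus strand: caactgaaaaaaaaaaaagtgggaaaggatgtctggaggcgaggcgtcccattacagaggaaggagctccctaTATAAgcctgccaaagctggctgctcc
Sfrp2, chr3:83766221-83766320, plus strand: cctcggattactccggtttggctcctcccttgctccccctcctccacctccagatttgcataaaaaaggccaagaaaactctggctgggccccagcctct
Tnn, chr1:160153576-160153675, minus strand: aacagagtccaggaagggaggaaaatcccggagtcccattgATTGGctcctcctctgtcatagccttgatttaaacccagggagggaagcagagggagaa
TATAA stood 26 bases before the start of Postn and 27 bases before that of Tnc, and CCAAT on the opposite strand 59 bases before that of Tnn. Of all 32851 windows of this length, 10.2% held TATAA and 18.9% held CCAAT. The table also lists another start each for Postn and Tnc, whose windows held neither motif. A match is a description of letters, and no match says nothing about a factor.

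The members were deep spots with less muscle RNA than the other spots. Their median depth was 18942 UMIs (range 2198 to 57940) with 4912 genes, against 12058 UMIs and 3075 genes in the other spots and 10782 UMIs in the cartilage-gene spots. Adult myofibre genes took 7.50% of member UMIs against 17.1% in the other spots, and mitochondrial genes 6.31% against 13.4%. Per spot the myofibre share of members ran from 1.16 to 17.5% with a median of 8.58%. The median gene was 0.51 higher in the members on the log2 scale of CPM, and 0.03 higher with edgeR TMM factors. Lists are to be read against this shift, and a pair of comparisons is therefore given. The first is members against all 2413 other spots. The second is members against the 179 other spots with a myofibre share of at most 11.6% (the 75th percentile of members). There the median gene moved by -0.05. These 179 spots were also richer in the markers, with a median score of 1.45% (highest 2.40%) against 0.575% in all other spots. The second comparison thus changes muscle RNA and stromal RNA together, and their parts in the lost calls were not tested.

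A gene is called higher or lower here if its CPM ratio was at least 1.5-fold and its counting interval left out 1. Of 15212 genes with 10 or more UMIs, 5687 were higher in members than in the other spots and 913 lower, a background of 37.4% and 6% of genes. Against the myofibre-poor spots, 869 of 13645 genes were higher and 1260 lower, 6.37% and 9.23%. The contrast is the one the rule used, so nothing is read from the counts themselves.

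Among genes with 50 or more CPM in either group, Sfrp2 and Tnn had the largest ratios of members to other spots. Sfrp2, a secreted Wnt-binding protein, ran from 0 to 11131 CPM per spot in members with a median of 611, and from 0 to 2600.2 in other spots with a median of 60.1. Its summed level was 998 CPM against 118, a ratio of 8.45 (interval 8.10 to 8.81), and 3.79 against the myofibre-poor spots. The 2 ranges overlap, but 96.3% of members lay above the median of the other spots and 3.40% of other spots above the median of members. Tnn (tenascin-N, also called tenascin-W), a glycoprotein of bone and stroma, had medians of 316 CPM in members and 0 in other spots. It was summed to 476 against 56.8 CPM (8.39-fold, 7.89 to 8.91), and with a ratio of 7.91 it had the largest ratio to the myofibre-poor spots among the 30 genes named by rule in this comparison.

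Of the other 13 genes at this end, 3 are known from fibroblasts of fibrotic tissue. Aspn, a small leucine-rich proteoglycan that binds TGF-beta, had a spot median of 623 CPM in members and 91.3 in other spots and summed to 1038 against 149 CPM (6.95-fold). Cthrc1, a secreted triple-helix protein, had medians of 548 and 58.7 and summed to 746 against 109 (6.83-fold). Adam12, a membrane metalloprotease of activated mesenchymal cells, reached 108 against 18.3 (5.90-fold). Matrix genes here were Thbs2 (thrombospondin 2, 6.57-fold), Ccn3 (6.26-fold), Col8a2 (6.23-fold) and Olfml2b (6.22-fold). P4ha3, a prolyl hydroxylase for collagen, was 6.26-fold higher. Dkk3 (7.09-fold), Ecrg4 (6.85-fold), the adipokine-related C1qtnf3 (6.15-fold), Pdgfrl (5.84-fold) and the inositol transporter Slc5a3 (5.79-fold) completed the set. Each of the 15 was higher against the myofibre-poor spots too, from 2.54-fold for Adam12 to 7.91-fold for Tnn.

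**Figure D2:**
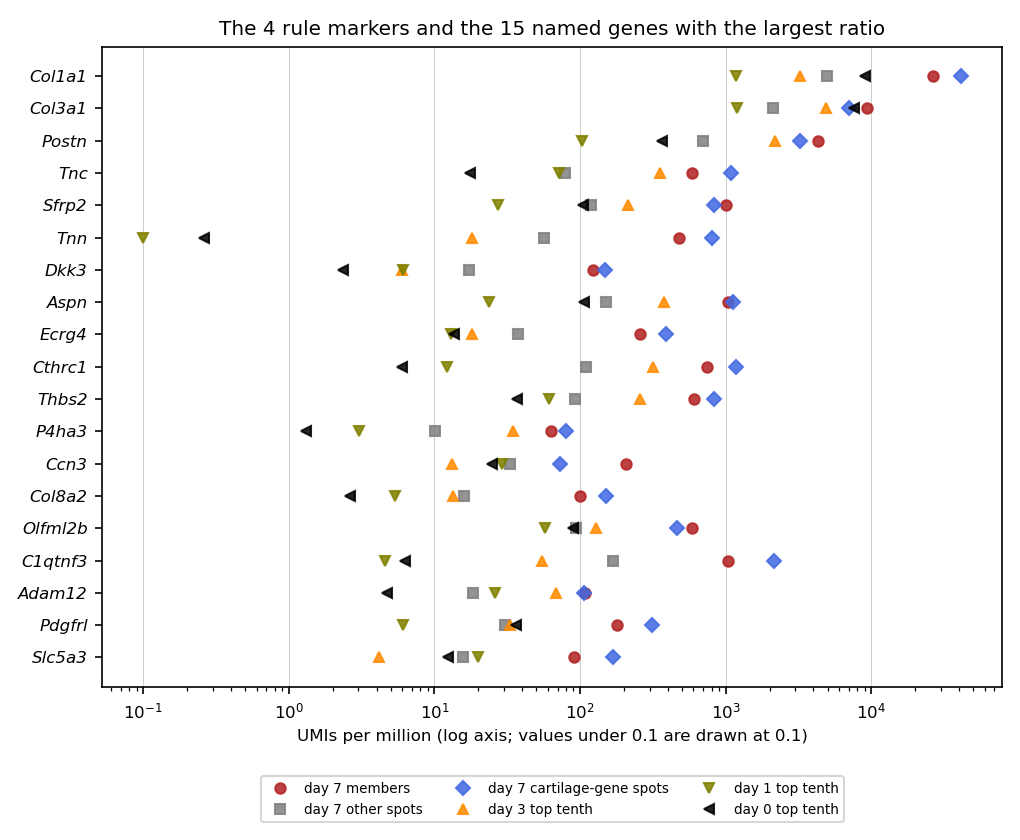
Summed level (CPM, log axis) of the 4 rule markers and of the 15 named genes with the largest ratio of members to other spots, in 6 groups of spots; each point is 1 group of 1 section, with no replicate. For Sfrp2 the members (998) lie above the top 10% of spots by the same score on day 0 (105), day 1 (27.3) and day 3 (213).

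At the other end stood muscle genes. Actc1, the cardiac and fetal actin, was lowest at 260 CPM in members against 1099 in other spots, a ratio of 0.236 (0.224 to 0.250). In uninjured muscle (day 0) it was at 4477 CPM in the spots with the highest share of the same markers. Its level is therefore not read here as a sign of regenerating fibres. Myh8 (perinatal myosin, 0.250), Mybph (0.261), Myl4 (0.313), Myoz1 (0.365) and Cox7a1 (0.291) belong to sarcomeres and muscle mitochondria. Gapdh had a ratio of 0.364. Against the myofibre-poor spots 4 of these 15 turned above 1 (Mettl21c, Plcd4, Ckmt2 and Smox), and none of these 4 was called there.

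The collagens outside the rule were high as a group. All 16 other interstitial collagen genes were higher than in all other spots, with a median log2 ratio of 1.83, and 12 of 16 against the myofibre-poor spots. Col1a2, the partner chain of Col1a1, ran from 6689 to 44111 CPM per member spot with a median of 15664, against a median of 2626 in other spots, and 0.290% of other spots passed the median of members. Col5a1, which sets the width of collagen fibrils, reached 2036 CPM against 400.2 (5.09-fold), and Col12a1, a fibril-associated collagen of tendon and periosteum, 1296 against 238 (5.45-fold). Col16a1 (5.72-fold) and Col8a1 (5.36-fold) were close to these. The collagens of basement membrane zones differed less: Col15a1 was 1.87-fold higher and Col18a1 2.50-fold, and neither was called against the myofibre-poor spots (1.11 and 0.964).

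Genes of the machinery that modifies and ships collagen were higher too. Of 23 collagen processing and cross-linking genes 22 were higher (median log2 ratio 1.36), and 15 of 23 against the myofibre-poor spots. Serpinh1, the collagen chaperone HSP47, was at 1276 CPM against 363 (3.52-fold, 3.41 to 3.62). Plod2, the lysyl hydroxylase that marks telopeptides for stable cross-links, was at 145 against 35.6 (4.08-fold). Bmp1, which cleaves the C-propeptide, was 3.82-fold and Lox, a cross-linking oxidase, 3.77-fold higher, although Lox stood at 1.49 against the myofibre-poor spots. Of 20 secretory pathway genes 19 were higher (median 1.31) and 8 of 20 against the myofibre-poor spots. The KDEL receptor Kdelr3 (3.57-fold) and the disulfide isomerase Pdia4 (3.33-fold) led this list.

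Adhesive and elastic matrix genes followed the same order. Of 21 matricellular genes 17 were higher (median 1.95), and 13 were higher and 1 lower against the myofibre-poor spots. Fn1 (fibronectin) ran from 418 to 9898 CPM per member spot with a median of 2222 against 444 in other spots, and summed to 4.99-fold. Sparc, a collagen-binding protein, had medians of 6362 and 1559.5 (3.87-fold), and Thbs1, an activator of latent TGF-beta, reached 212 against 44.6 (4.76-fold). Mgp, an inhibitor of calcification, was at 1212 against 824 (1.47-fold), under the limit for a call, and was lower than in the myofibre-poor spots (0.507). All 17 elastic fibre and microfibril genes were higher (median 1.41), but only Fbn2, Fbln2, Efemp2, Emilin1 and Ltbp2 were so against the myofibre-poor spots. Eln (elastin) went from 3.80-fold to 1.22. Among 12 small leucine-rich proteoglycans 10 were higher, led by Aspn, Bgn (3.91-fold) and Lum (3.58-fold), whereas Dcn (decorin) had a ratio of 1.71. The tendon and cartilage proteoglycans Kera (6.09 against 7.00 CPM) and Chad (7.47 against 8.57) were not called. With TMM factors 8 of the 12 were higher and 2 lower, and against the myofibre-poor spots 7 and 2.

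Matrix proteases were mixed. Of 21 tested genes 16 were higher and 2 lower, and 6 and 3 against the myofibre-poor spots. Mmp2 and its membrane activator Mmp14 were 3.21-fold and 4.07-fold higher, and the fibroblast protease Mmp11 3.79-fold. The macrophage elastase Mmp12 (1.96 against 10.4 CPM) and the inhibitor Timp4 (12.4 against 26.2) were lower.

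Genes of activated fibroblasts were high, while those of resting fibroblasts lay nearer the median gene, with a median log2 ratio of 0.68 against 0.51 for all genes. All 16 genes of the activated fibroblast list were higher than in the other spots (median 1.89), 15 of 16 with TMM factors and 9 of 16 against the myofibre-poor spots. Lrrc15, a membrane protein of matrix-producing fibroblasts, had the largest ratio of the list at 37.3 CPM against 4.34 (8.60-fold, 6.89 to 10.7), with UMIs in 38.3% of member spots and 5.22% of other spots. After thinning to 2000 UMIs these shares were 5.82% and 0.771%. Itga11, a collagen-binding integrin, was 3.91-fold higher, the growth factors Ptn and Mdk 4.10-fold and 3.52-fold, and Fap 2.21-fold. In the resting fibroblast list 9 of 17 genes were higher and 1 lower, which became 3 and 3 with TMM factors and 3 and 0 against the myofibre-poor spots. Pi16, a gene of adventitial fibroblasts, had a spot median of 177 CPM in members and 88.8 in other spots and a summed ratio of 1.43, which was not called. Dpp4 was at 14.1 CPM (1.61-fold), Hsd11b1 was lower (0.488), and Cd248, shared by pericytes and active fibroblasts, was 3.09-fold higher.

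The contractile genes of myofibroblasts and smooth muscle depended on the comparison. Acta2 (alpha smooth muscle actin) was 2.17-fold higher than in all other spots, at 463 against 214 CPM, but 0.663 of its level in the myofibre-poor spots. Of the 8 genes, 4 were higher and 1 lower against all other spots, and 0 higher and 7 lower against the myofibre-poor spots. Tagln went from 1.94 to 0.526, Cnn1 from 2.10 to 0.432 and Myh11, which was not called in the first comparison, from 1.19 to 0.270.

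**Figure D3:**
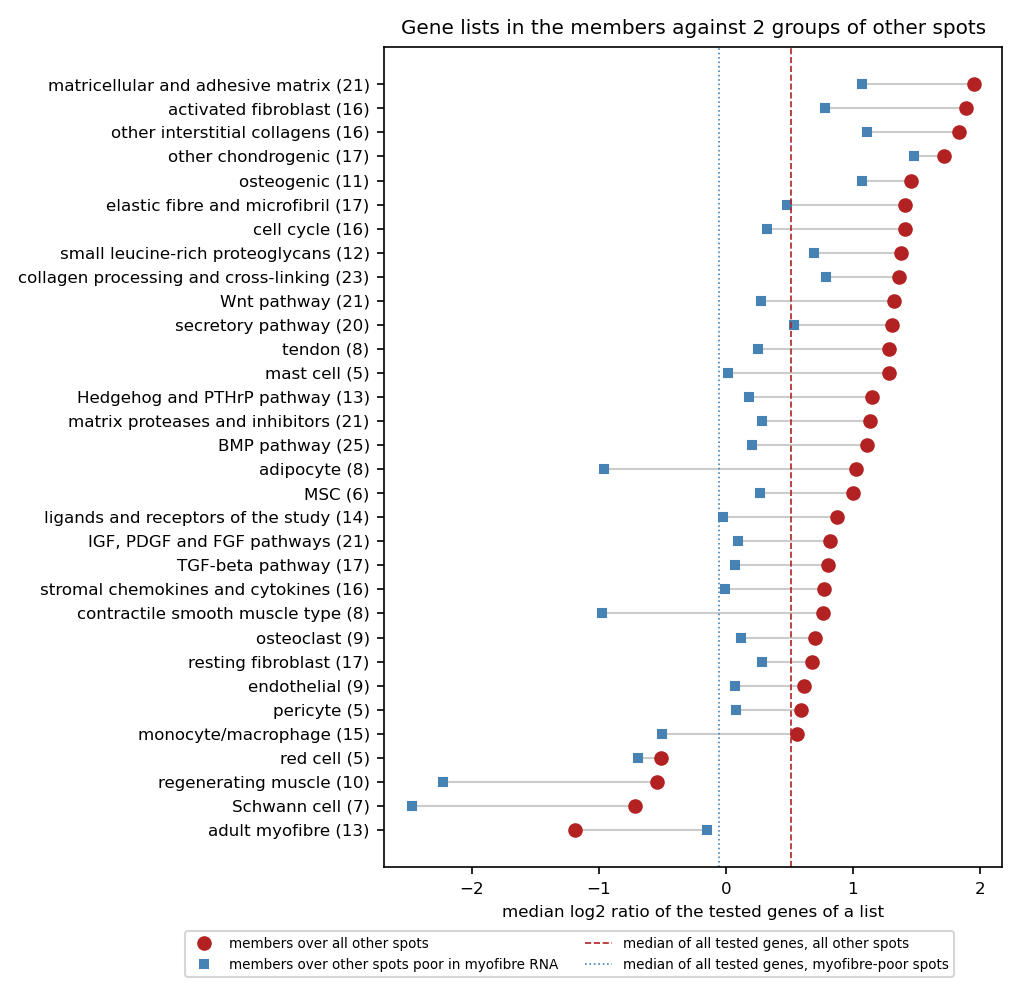
Median log2 ratio over the tested genes of each list (number in brackets) for members against all 2413 other spots (red circles) and against the 179 other spots poor in myofibre RNA (blue squares), with no replicate. Vertical lines mark the median of all tested genes, 0.51 and -0.05; collagen, matricellular and chondrogenic lists stay above both, while contractile and adipocyte lists cross them.

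Skeletal genes were present in the members although the richest cartilage spots had been left out. Col2a1 was at 572 CPM in members against 199 in other spots and 4700.1 in the cartilage-gene spots; it was part of the exclusion and is only described. Of the 17 other chondrogenic genes 16 were higher than in the other spots and 1 lower (median 1.72), and 14 of 17 against the myofibre-poor spots. Sox9, the regulator of chondrocyte fate, was at 138 against 37.6 CPM (3.66-fold, 3.33 to 4.01) and at 455 in the cartilage-gene spots. Col11a1 (4.26-fold), Matn4 (4.30-fold) and Comp (3.23-fold) were also higher. Col10a1, of hypertrophic cartilage, reached 8.06 CPM in members and 81.5 in the cartilage-gene spots.

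Several osteogenic genes were higher, while the osteocalcin genes, Dmp1 and Phex were near 0. Of 11 tested osteogenic genes 6 were higher and 0 lower, and the same counts with the myofibre-poor spots were 6 and 1 of 9. Runx2, the regulator of osteoblast commitment, was 4.77-fold higher (21.0 against 4.40 CPM), Sp7 (osterix) 4.35-fold, Dlx5 7.37-fold, Alpl 3.11-fold and Smpd3 2.82-fold. Ibsp, bone sialoprotein, summed to 229 CPM in members. Per spot it ran from 0 to 1239 CPM with a median of 207 in members. In other spots it ran from 0 to 1241 with a median of 0, so the ranges overlapped. The osteocalcin genes Bglap and Bglap2 had 0 UMIs in the members, and the osteocyte genes Dmp1 and Phex had 4 and 2 UMIs. Mef2c, which muscle also expresses, was at 0.701 and was not called.

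Tendon genes gave a mixed list. Of 8 genes 6 were higher and 0 lower, 5 and 2 with TMM factors, and 1 and 2 against the myofibre-poor spots. Scx, the tendon regulator, was at 47.9 CPM (2.40-fold higher), Mkx at 7.07 against 1.93 (3.66-fold), and Tnmd at 45.0 against 25.2 (1.79-fold). In the myofibre-poor comparison Scx stood at 1.24 and Tnmd at 1.04.

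Many members ranked high for other gene lists as well. Each list was used to take its own top 10% of the 2682 spots, 269 spots each, called its top set. The activated fibroblast top set held 70.6% of members and 3.27% of other spots, the other chondrogenic one 46.5% and 5.97%, the tendon one 42.4% and 6.42%, and the osteogenic one 31.2% and 7.67%. The adult myofibre top set held 0 members and 11.1% of other spots, and the regenerating muscle one 1.49% and 11.0%. The resting fibroblast top set held 12.6% of members and 9.74% of other spots. Lists that are not skeletal held similar shares to the osteogenic one: cell cycle 32.0% and 7.58%, and mesenchymal stromal cell (MSC) 30.1% and 7.79%. The endothelial top set held 22.7% and 8.62%. In all, 152 members (56.5%) lay in the osteogenic or the chondrogenic top set, 57 in both, and 34 (12.6%) in none of the top sets of 7 lists (osteogenic, tendon, other chondrogenic, adult myofibre, regenerating muscle, macrophage and adipocyte). The label of fibrous stroma thus covers spots of which over 50% also rank high in skeletal RNA. The joint counts were not taken for the other spots, so they have no background here. The part of the lower myofibre share of members in these ranks was not tested.

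**Figure D4:**
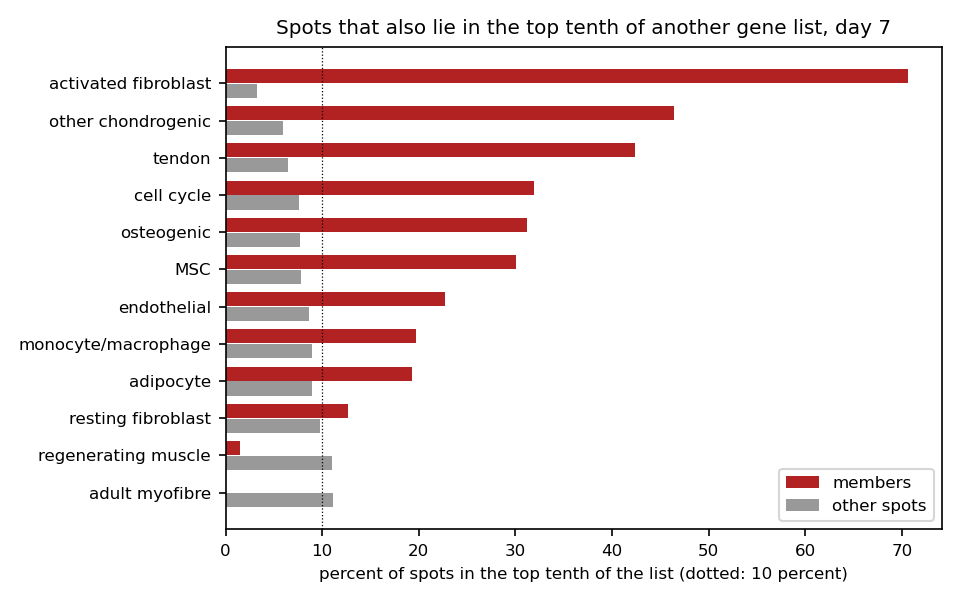
Percent of the 269 members (red) and of the 2413 other spots (grey) that lie in the top 10% of another gene list among the 2682 spots of the day 7 section. The activated fibroblast list has the longest red bar (70.6%), and the adult myofibre list has 0% of members.

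The spots in none of the 7 top sets had fewer marker UMIs, and other stromal genes went either way. These 34 spots had 3.16% marker UMIs, against 5.02% in the 114 members of the tendon top set and 4.15% in the 84 of the osteogenic one. They also held more muscle RNA: Acta1 was at 28068 CPM against 14163 and 17794, and Ckm at 13368 against 7252 and 10664. The adult myofibre top set held 0 members, so that list left none of them out. The part of muscle RNA in the other values was not tested. Tnn was at 280.4 CPM in the 34 spots, 617 in the tendon set and 632 in the osteogenic set. Cthrc1 was at 425, 1019.9 and 823, in the same order. Pi16, Cd34 and Gsn, of the resting fibroblast list, had larger values in the 34 spots than in those sets. Cd34 was at 291, 223 and 208 CPM, in the same order, and Gsn at 1076, 817 and 845. Pi16 was at 282, 209 and 177, in the same order. Its level of 817 in the 34 members of the resting fibroblast top set follows in part from the choice, since Pi16 is on that list. The genes given here were picked after their values were seen, and the sets overlap, since a spot can be in several.

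When the 152 spots of the skeletal top sets were left out, 117 members remained, and of 15053 genes tested 5296 were higher and 853 lower than in the other spots. Of 17 other chondrogenic genes 10 were still higher and 1 lower, and of 11 osteogenic genes 7 and 1, although these lists chose the spots left out.

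Signals to and from the stroma were described by pathway. Of 17 TGF-beta genes 12 were higher (5 with TMM factors), and 2 against the myofibre-poor spots. Those 2 were the ligands Tgfb3, at 172 CPM against 46.5 (3.70-fold, 1.64 in the second comparison), and Inhba, the activin A subunit, at 34.8 against 8.08 (4.30-fold, 2.73). Tgfb1 was 1.72-fold higher than in all other spots and 0.824 of the myofibre-poor spots. The receptor Tgfbr2 (2.25-fold) was higher than in all other spots.

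In the BMP list ligands, targets and antagonists are given in turn. The ligand Bmp4 was at 9.04 CPM in members and 9.92 in other spots and was not called, and the file does not tell the transgene from the endogenous gene. Bmp2 (3.34 against 4.13) was not called, Bmp6 was lower (0.601) and Bmp5 higher (2.68-fold). The targets Id1 (2.16-fold), Id2 (3.50-fold) and Id3 (3.47-fold) and the inhibitory Smad6 (2.27-fold) were higher, as were the receptor Acvr1 (2.22-fold) and the pseudoreceptor Bambi (3.34-fold). The antagonist Grem1 reached 2.16 CPM on 11 UMIs and Nog was not called (1.08). Over the list 15 of 25 were higher and 2 lower, and 4 and 7 of 24 against the myofibre-poor spots.

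In the Wnt pathway secreted modulators had the larger ratios. Beside Sfrp2 and Dkk3, Sfrp1 was at 199 CPM against 37.6 (5.30-fold), Sfrp4 at 116 against 33.8 (3.43-fold) and Frzb at 65.6 against 26.2 (2.50-fold). The Wnt-cleaving enzyme Notum had the largest ratio of the list, 13.8 (5.66 to 37.1), on 17 member UMIs. The target Axin2 was not called (4.91 against 5.46), and the ligand Wnt5a was at 16.1 against 10.9 and was not called either. In the list 12 of 21 were higher and 1 lower, 8 and 4 with TMM factors, and 7 and 3 of 19 against the myofibre-poor spots.

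Hedgehog genes included the receptor Ptch1 (2.11-fold), the target Gli1 (3.00-fold) and the transducer Smo (3.26-fold). Pth1r, the PTHrP receptor of the growth plate and osteoblasts, was at 218 CPM against 76.4 (2.86-fold) and at 1166 in the cartilage-gene spots. Of 13 genes 10 were higher, and 2 against the myofibre-poor spots. Of 21 IGF, PDGF and FGF genes 13 were higher and 0 lower, 9 and 2 with TMM factors, and 3 and 2 of 20 against the myofibre-poor spots, with Igf1 at 392 against 114 CPM (3.45-fold) and Fgfr2 at 35.4 against 6.21 (5.69-fold), while Igf2 was not called (123 against 184).

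Immune and vascular RNA was present in the members. Of 15 monocyte/macrophage genes 6 were higher and 1 lower than in the other spots, 1 and 2 with TMM factors, and 0 and 7 against the myofibre-poor spots. Lyz2 was at 1116 CPM against 897, C1qa at 487 against 291 (1.67-fold) and Gpnmb at 37.5 against 86.9 (0.432). The summed macrophage list was at 3015 CPM in members, 2187 in other spots and 6381 in the myofibre-poor spots. Spp1, osteopontin of macrophages and bone, was lower (61.7 against 104). Neutrophil genes other than Csf3r (10.8 CPM) had at most 3 UMIs, with Ly6g and Cxcr2 at 0. Of 5 tested mast cell genes 5 were higher, with Mcpt4 at 37.5 against 15.4 CPM, and 0 of 5 against the myofibre-poor spots. Of 9 endothelial genes 5 were higher, but 0 with TMM factors and 0 against the myofibre-poor spots.

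Proliferation genes were higher in members than in the other spots, but most were lower than in the cartilage-gene spots described below. All 16 cell cycle genes were higher (median 1.41), 12 of 16 with TMM factors and 3 against the myofibre-poor spots, and Mki67 was at 30.5 CPM against 9.86 (3.09-fold). Adipocyte genes were higher in 5 of 8 and lower in 1, and 0 and 5 against the myofibre-poor spots. Of 13 adult myofibre genes 0 were higher and 12 lower, of 10 regenerating muscle genes 0 and 5, and of 7 Schwann cell genes 1 and 4. Against the myofibre-poor spots these counts were 0 and 1, 0 and 10, and 1 and 6. The first pair follows in part from the choice, since those spots were picked by their share of the same adult myofibre genes. Of 9 osteoclast genes 4 were higher and 1 lower, of 6 MSC (mesenchymal stromal cell) genes 5 and 0, of 5 pericyte genes 3 and 1, of 8 T and NK cell genes 1 and 0, of 4 B and plasma cell genes 0 and 2 and of 5 red cell genes 0 and 2. Against the myofibre-poor spots the counts were 0 and 3 of 7 for osteoclast, 1 and 0 of 6 for MSC, 0 and 0 of 5 for pericyte, 0 and 1 of 3 for T and NK cell, 0 and 1 of 3 for B and plasma cell and 0 and 3 of 5 for red cell genes. Of the skin keratins, Krt5 and Krt14 had 0 UMIs and Krt10 had 22. The part of these cells in the member values was not tested.

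The cartilage-gene spots show what lies just beyond the exclusion. Of 13476 genes 1347 (10%) were higher in the members and 1457 (10.8%) lower, around a median gene shift of -0.02. This comparison was added after the values were seen, and the cartilage genes that set these spots apart are part of the rule. Col1a1 was at 26672 CPM in members and 41312 in cartilage-gene spots, but Col3a1 at 9392 and 7048, so Col1a1:Col3a1 was 2.84 and 5.86. Postn was at 4287 and 3233, Tnc at 583 and 1085.

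Members differed from these spots by less skeletal RNA and by more loose connective and muscle RNA. Adult myofibre genes took 7.50% of UMIs in members and 5.11% in these spots, and mitochondrial genes 6.31% and 3.46%. Lower were 8 of 9 osteogenic, 16 of 17 other chondrogenic and 13 of 16 cell cycle genes. Higher were 12 of 17 resting fibroblast, 14 of 15 macrophage, 13 of 14 stromal chemokine and cytokine and 7 of 7 adipocyte genes. Cfd (adipsin) had the largest ratio by the naming rule, 378 against 50.7 CPM (7.45-fold), with Myl2 (6.22-fold), Ccl21a (6.21-fold for the copy ENSMUSG00000094686, whose reads may be split with near-identical copies), Gdf10 (6.04-fold) and Sfrp4 (5.67-fold). Lowest were Col10a1 (0.0989), the hedgehog ligand Ihh (0.128), Gramd2 (0.138), the citrate transporter Slc13a5 (0.138) and Col9a3 (0.143). Of the activated fibroblast list 3 of 16 were higher and 3 lower.

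Along the time course the same score selected spots of other makeup. The top 10% of each section by the same 4 genes numbered 209 spots (day 0), 216 (day 1) and 302 (day 3), and the limits in that order were 0.986, 0.141 and 0.752%. No spots were left out for cartilage genes on these days, whereas at day 7 the cartilage-gene spots were left out first. The day 7 limit was reached by 1.24% of spots on day 0, 0% on day 1 and 0.0662% on day 3. Col1a1 in these top sets was at 9061, 1174 and 3231 CPM against 26672 in the members. Postn was at 364, 103 and 2169 against 4287, and Tnc at 17.5, 71.4 and 352 against 583. Col1a1:Col3a1 was 1.19, 0.975 and 0.662, and 2.84 in the members. Col3a1 thus exceeded Col1a1 at day 3, while their levels were close at day 1, where no interval of the ratio was computed. Each value is of 1 section, and day and section cannot be told apart.

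Against the day 3 top set, 3568 of 14053 genes (25.4%) were higher in the members and 2447 (17.4%) lower. By the naming rule the most raised were skeletal: Ibsp, Col9a2 and Hapln1 had 0 UMIs in 8463564 at day 3. With 3 UMIs as the floor their ratios were 646, 477 and 209.5, with lower interval limits of 525, 387 and 170. Matn4 was at 320.1 against 0.945 CPM, with 8 UMIs at day 3, and Matn3 at 70.1 against 0.354, with 3 UMIs at day 3 (ratio interval 67.2 to 964). The most lowered were the neuropeptide gene Gal (1.57 against 169 CPM), the myeloid genes Chil3 (1.18 against 84.4) and Bcl2a1b (1.57 against 57.9, with near-identical copies that may share its reads), Spp1 (61.7 against 1089) and the muscle LIM protein gene Csrp3 (42.6 against 679). All 17 other chondrogenic genes were higher and all 16 cell cycle genes lower, and 14 of 15 macrophage genes were lower.

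Some stromal genes were higher in the day 3 top set than in the members. Lox was at 541 CPM at day 3 and 274 in the members, Timp1 at 485 and 185, and Tgfbi at 460.2 and 291. Thbs1 was at 401 and 212, all lower in the members. Sfrp2 (213 and 998), Col12a1 (186 and 1296), Mdk (19.5 and 293) and Ptn (14.2 and 219) were higher in the members. Of 16 activated fibroblast genes 10 were higher than in the day 3 top set and 4 lower, and of 20 secretory pathway genes 4 and 3.

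Against the day 0 top set, 6531 of 13358 genes (48.9%) were higher and 840 (6.29%) lower, around a median gene shift of 0.69 that fell to 0.03 with TMM factors. Myofibre RNA took 21.5% of UMIs in that top set. Tnn had 1 UMI at day 0 and 476 CPM in the members (ratio interval 327 to 71950.4). Ibsp had 0 UMIs at day 0, and with 3 UMIs as the floor its ratio was 292, with a lower interval limit of 237. C1qtnf3 was at 6.28 CPM at day 0 and 1037 in the members, Col9a3 at 1.05 and 171, and Comp at 3.40 and 532. Lowest were Retnla (6.48 against 218 CPM), Actc1 (260 against 4477), B230312C02Rik, 2310065F04Rik and Depp1. Actc1 is on the regenerating muscle list, of which 8 of 10 genes were higher in the members and 1 lower. All 16 activated fibroblast genes were higher, with Ltbp2 at 1.05 CPM at day 0 and 113 in the members, while 2 of 17 resting fibroblast genes were higher and 2 lower. Clec3b was at 295 and 169, and Pi16 at 237 and 238.

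Within the members, the balance of type III to type I collagen ordered the spots. The 89 members with the highest and the 89 with the lowest Col3a1:Col1a1 were compared. Of 12142 genes 919 (7.57%) were higher in the Col3a1-rich spots and 385 (3.17%) lower, with a median shift of 0.08. Col1a1:Col3a1 ran from 1.02 to 2.71 in these spots and from 4.07 to 29 in the Col1a1-rich spots, whose myofibre share was 9.21% against 6.37%. Mcpt4, a mast cell protease, was at 75.8 CPM in the Col3a1-rich and 9.41 in the Col1a1-rich spots (8.05-fold, 4.48 to 15.9). Hp (509 against 78.4 CPM), Cfd (6.26-fold), Scara5, a gene of adventitial fibroblasts (6.05-fold), and Myl2 (6.05-fold) were the next. Lowest were Tnmd (19.8 against 83.9 CPM), Panx3 (0.348), Matn4 (0.396), Snorc (0.416) and Col11a2 (0.420), genes of tendon and cartilage. The Col3a1-rich spots were higher in 9 of 17 resting fibroblast, 6 of 6 MSC and 11 of 13 chemokine and cytokine genes, and lower in 14 of 16 other chondrogenic genes.

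Ordering the same spots by the Tnc share of marker UMIs gave another contrast. Of 12132 genes 817 (6.73%) were higher in the Tnc-rich spots and 664 (5.47%) lower, with a median shift of 0.05. The Tnc-rich spots had 4.57% marker UMIs against 3.85%. Higher in these spots were the chemokine Cxcl10 (74.2 against 3.66 CPM), the matrix protein Ltbp2 (3.85-fold), Sp7 (108 against 31.1 CPM, 3.46-fold), Tnn (3.40-fold) and the retinoic acid hydroxylase Cyp26b1 (3.18-fold). Lower were the mast cell proteases Mcpt4 (3.12 against 101), Cma1 (3.12 against 63.5) and Tpsb2 (4.36 against 59.8), with Cfd (0.138) and Nnat (0.146). Of the activated fibroblast list 12 of 16 were higher and 1 lower, and of the resting list 0 of 17 higher and 12 lower. Osteogenic genes were higher in 4 of 7 and adipocyte genes lower in 7 of 7. Both orderings use marker RNA of the same spots, so they describe how the members vary.

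**Figure D5:**
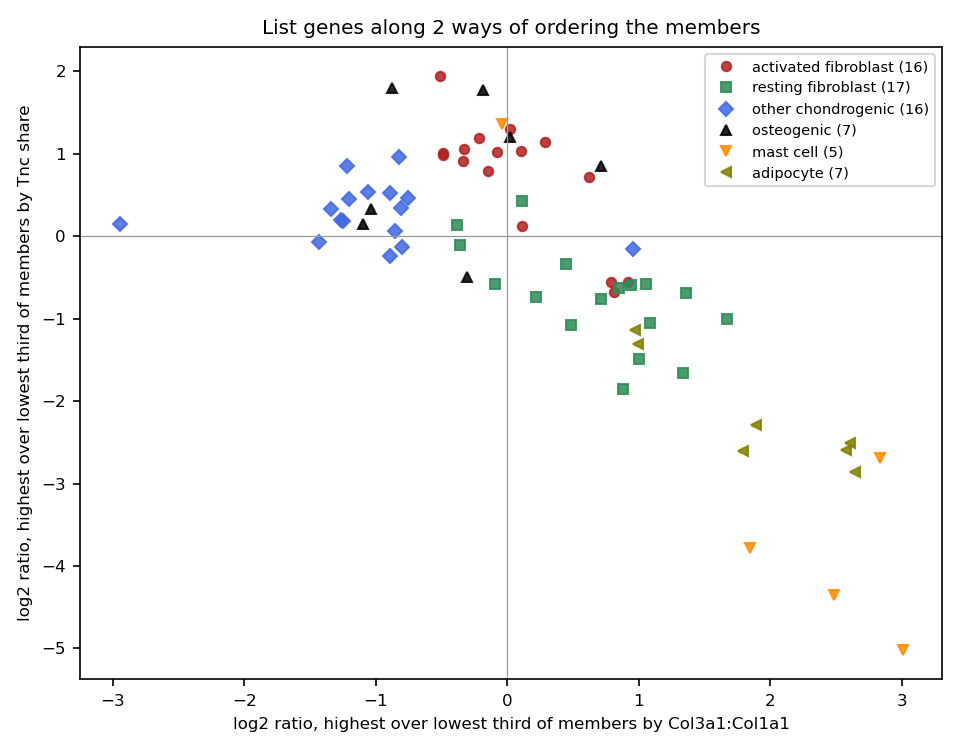
Log2 ratio of the genes of 6 lists between the 89 highest and the 89 lowest members by Col3a1:Col1a1 (horizontal axis) and by the Tnc share of marker UMIs (vertical axis), without replicates; the 2 orderings share the same spots. Adipocyte genes and 4 of 5 mast cell genes lie at the lower right, most activated fibroblast genes above 0 on the vertical axis, and other chondrogenic genes except 1 to the left.

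Signals between stroma and immune cells were read in the members as well. Of 16 stromal chemokine and cytokine genes 9 were higher than in the other spots and 0 lower, or 5 and 1 with TMM factors. Against the myofibre-poor spots 1 of 14 was higher and 0 lower. That 1 was Lif, a cytokine of the IL-6 family, with 31 member UMIs and 6.09 against 0.724 CPM (8.41-fold), while Cxcl12, the ligand of CXCR4, went from 2.47 to 1.11. A further list held ligands and receptors that the study named, with Axl and Ifngr1, receptors for Gas6 and Ifng, added. Of 14 tested genes of this list 9 were higher and 1 lower than in the other spots, and 3 and 2 of 13 against the myofibre-poor spots. Thbs1, Mif (463 against 226 CPM, 1.88 in the second comparison) and Gas6 (594 against 189, 1.54) were the 3. The receptors Cd47 (1.88-fold), Cd44 (2.36-fold) and Osmr (1.70-fold) were higher than in all other spots and not called against the myofibre-poor ones, and Axl was not called (134 against 93.8). Tnf had 2 and Ifng 0 member UMIs, and 0 UMIs allow up to 3 in 5089255, so Ifng was not detectable at this depth. Most of the list was picked by the study in part on these sections, so it is not independent evidence.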

How the data were processed

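RNA was measured by Visium spatial transcriptomics (10x Genomics), in which barcoded spots capture RNA from a cryosection. The authors processed the reads with Space Ranger against mm10, and the deposited files are filtered matrices of UMI counts per gene and spot for 4 sections; the file headers name Space Ranger 1.2.0, and the labels also mention Cell Ranger with STAR. No normalization had been applied. The members and the 38 gene lists were chosen with earlier results of these data known.

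UMIs were summed over the spots of a group and divided by the group total (CPM). Ratios carry exact conditional binomial intervals (95%), genes needed 10 UMIs over both groups, and fewer than 3 UMIs were entered as 3. A call needed a ratio of 1.5-fold and an interval without 1. No p-value was computed, since each day has 1 section. Correlations, and the thinned shares of spots with a UMI, used spots thinned to 2000 UMIs over 20 draws, while top sets used full depth. Genes were named by rule: outside mitochondrial genes and the genes of the selection, with 50 CPM in either group, the 15 largest and 15 smallest ratios to the other spots, the 5 largest and 5 smallest elsewhere, and the genes of the lists. Genes named from the lists as examples were picked after their values were seen. The comparison with cartilage-gene spots and the one leaving out skeletal members were added after the values were seen. Doublets do not apply to spots. Of the series' other sources, GRCm38.p6 promoter windows from RefSeq were used. Steps were run with SciPy 1.17.1, pandas 2.3.3 and NumPy 2.4.6 under Python 3.11.15 and with R 4.3.3 (edgeR 4.0.16 and DESeq2 1.42.0, for scaling factors alone), and tested on simulated counts. Depth was 2198 to 57940 UMIs per member spot. Alternatives changed the UMI minimum, the limits, the weights of the markers, the scaling, the fold, the comparison spots and the depth.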

Additional observations from a re-analysis of the deposited data

How the results depend on the processing

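Limits: 1 section per day, members chosen on the RNA that is described, and spots of mixed cells. Against the other spots, 5687 genes were higher and 913 lower. With totals that leave out mitochondrial, haemoglobin and myofibre genes the counts were 3208 and 1743, with edgeR TMM factors 2253 and 2355, and with DESeq2 size factors 2212 and 2388, so the share of calls that were higher went from 86.2% to 64.8, 48.9 and 48.1%. The median gene went from 0.51 to 0.20, 0.03 and 0.03 (log2). Against the myofibre-poor spots 869 genes were higher. With all spots thinned the counts were 3100 and 537, on fewer genes tested, and with a 2-fold limit 2846 and 356. Another UMI minimum, another score or cartilage percentile, equal marker weights, a score without Col1a1, no minimum of UMIs per gene, or leaving out skeletal members gave 5296 to 5913 higher and 632 to 1153 lower.

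Against the day 3 top set, spots at or above the day 7 limit (2 spots) gave 164 higher and 487 lower in place of 3568 and 2447. Against day 0, TMM factors gave 2465 and 2457 and totals without muscle genes 3923 and 1552 in place of 6531 and 840, which took the share higher from 88.6% to 50.1 and 71.7%, and the 26 spots at the limit gave 2756 higher. The cause of these changes was not tested beyond the construction of each alternative.

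Of list medians of at least 1.5-fold as reported, 7 changed sign in an alternative. The Schwann cell median was 0.070 with the 80th percentile of the score and 0.36 with the 80th percentile of the cartilage share. Against the myofibre-poor spots the medians were -0.97 (contractile), -0.0059 (chemokines and cytokines), -0.024 (ligands and receptors of the study), -0.56 (T and NK cell) and -0.96 (adipocyte). Smaller medians changed sign too: macrophage from 0.56 to -0.50 against the myofibre-poor spots, regenerating muscle from -0.54 to 0.095 with all spots thinned, red cell from -0.51 to 0.38 with the 80th percentile of the cartilage share and to 0.24 without skeletal members, and the neutrophil and skin lists, with few tested genes, in several alternatives. Of named genes, 4 changed sign there: Mettl21c 0.35, Plcd4 0.063, Ckmt2 0.23 and Smox 0.28 (log2). No paired analysis was possible because each day has 1 section.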
